A study of Mus musculus with 20 samples.

Results

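Plexins are the cell surface receptors of semaphorins, and this report describes 10 genes of that system in aged mouse quadriceps: the plexins Plxnb2, Plxnb1, Plxna1, Plxna2, Plxna3 and Plxnd1 and the class 4 semaphorins Sema4a, Sema4b, Sema4c and Sema4d. The genes were chosen by symbol, 10 of the 55416 Ensembl genes in the count table, and Plxnb2 heads them because it was the only gene past the 5% false discovery rate (FDR) between secretome and saline in the edgeR fit of these muscles, where other fits called more genes or none. The treatment difference of these 10 genes was therefore selected on the data and is given as a description. Calls of the 10 genes on this difference are printed beside the share of all genes, and nothing is read from them. All 10 genes passed the filter on low counts.

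The table holds 20 quadriceps from wild-type (WT) male C57BL/6J mice aged 26 to 28 months. In each of the 10 control mice the muscle received 1 injection of 50 µl of 0.9% saline, and in each of the 10 secretome mice 1 injection of 50 µl of a stem cell secretome product, the concentrated medium of partially differentiated human embryonic stem cells. All mice had been fasted for 4 h, and the muscle was taken 3 h after the injection, so that both groups share the needle injury, the fast and the age. The comparison asks what a single dose did to muscle transcripts. The labels name no animal, cage or litter, so that p-values measure the spread between these samples.

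The libraries held 13286983 to 22987237 counted reads. Myofibre markers marked the tissue as muscle, with a summed level of 86571 to 164241 CPM, that is, reads scaled to a common library size. The libraries did not form 1 homogeneous set. The transcript of titin, the giant spring protein of the sarcomere, took 7.02% to 11.03% of the reads in libraries 1 to 5, which are all control, 16.4% to 21.1% in libraries 6 to 15, which are 5 control and 5 secretome muscles, and 14.2% to 14.7% in libraries 16 to 20, which are all secretome. Library numbers are those of the sample titles, in which control 1 to 10 are libraries 1 to 10 and secretome 1 to 10 are libraries 11 to 20. Within libraries 6 to 15 the treatments can be compared inside 1 range of titin share. Between libraries 1 to 5 and 16 to 20 the treatment and the library set cannot be told apart.

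A plexin carries a semaphorin-binding domain outside the cell and a GTPase-activating domain inside it that acts on Ras-family GTPases, and its activation loosens adhesion and rearranges actin. Class B plexins also bind the guanine nucleotide exchange factors ARHGEF11 and ARHGEF12 and associate with the receptor kinases MET and ERBB2, and their usual ligands are the membrane-bound class 4 semaphorins. Plexin-B2, encoded by Plxnb2, is found on many cell types, binds SEMA4C and SEMA4D, and also serves as a receptor of the secreted ribonuclease angiogenin.

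The 2 class B plexin genes had the lowest fitted treatment differences of the 6 plexins, and the sequence before their starts is shown for that reason. RefSeq promoter windows on build GRCm38.p6 matched 9 of the 10 genes with 17 windows. The sequences below run 5′ to 3′ on the strand of the gene, with each GC box (GGGCGG, or CCGCCC on the other strand) in capitals.
Plxnb2, chr15:89180789-89181038, minus strand: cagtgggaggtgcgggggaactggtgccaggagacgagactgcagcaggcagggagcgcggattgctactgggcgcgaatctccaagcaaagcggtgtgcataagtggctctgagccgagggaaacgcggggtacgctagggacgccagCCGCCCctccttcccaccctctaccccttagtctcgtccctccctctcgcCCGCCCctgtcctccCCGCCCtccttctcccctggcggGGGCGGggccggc
Plxnb1, chr9:109095186-109095388, plus strand: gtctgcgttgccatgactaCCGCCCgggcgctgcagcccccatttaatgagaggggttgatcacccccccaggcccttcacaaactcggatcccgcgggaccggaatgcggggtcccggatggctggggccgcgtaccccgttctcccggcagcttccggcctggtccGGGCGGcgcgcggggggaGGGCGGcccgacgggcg
The Plxnb2 stretch is the 250 bases before its annotated upstream start and holds 4 GC boxes, 20 CpG dinucleotides and 69.2% G and C. The Plxnb1 stretch stops where an annotated transcript begins and shows 3 of the 4 GC boxes in its 250-base window, which has 75.2% G and C. A GC box was present in 14 of the 17 windows of these 9 genes and in 32.7% of all 32851 windows. In 8.47% of all windows 3 or more were present. Over all windows the medians were 52.4% G and C and 6 CpG dinucleotides. The part of base composition in the number of boxes was not tested. The letters are a description of these windows and say nothing on which factors act there.

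Plxnb2 was lower in every secretome muscle than in every control muscle. The 10 control muscles ranged from 16.8 to 23.2 CPM with a median of 17.9, and the 10 secretome muscles from 11.2 to 14.5 CPM with a median of 13.9. The groups did not overlap: the lowest control, number 5, stood above the highest secretome muscle, number 9. The means were 19.2 ± 2.40 CPM in control and 13.3 ± 1.29 in secretome (SD, n = 10 each), and the fitted log2 fold change was -0.53 with a standard error (SE) of 0.08, a level 30.6% lower. The raw counts behind these values were 260 to 470 reads in control and 181 to 304 in secretome. Of the 14471 genes tested, 0.0138% had secretome muscles wholly below the controls, which is Plxnb2 and 1 other gene, Lgals3bp, a secreted galectin-binding glycoprotein named here after its values were seen. In bulk muscle, fewer cells that make a transcript and less transcript per cell cannot be told apart, and this holds for every gene below.

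**Figure D1:**
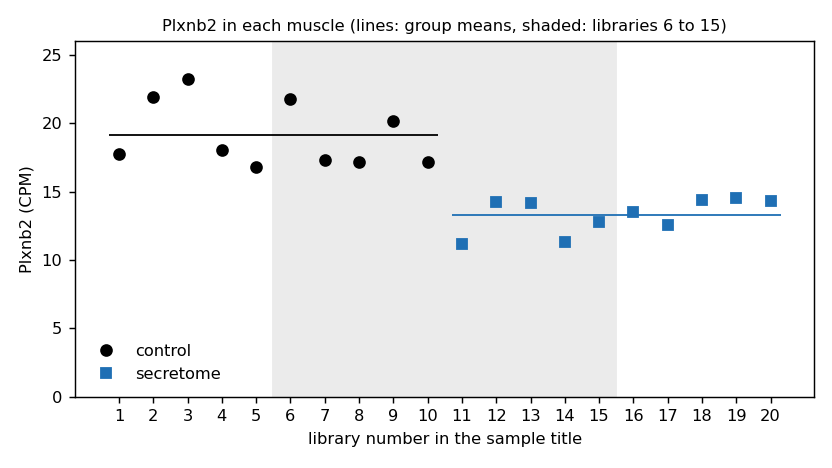
Plxnb2 in CPM (vertical axis) against library number (horizontal axis) for the 10 control muscles (black circles) and the 10 secretome muscles (blue squares), with group means as lines and libraries 6 to 15 shaded. All control muscles sit at 16.8 CPM or more and all secretome muscles at 14.5 or less, inside and outside the shaded range.

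The difference was of like size in both library sets. In libraries 6 to 15 the control muscles were at 21.8, 17.3, 17.2, 20.1 and 17.2 CPM and the secretome muscles at 11.2, 14.2, 14.2, 11.3 and 12.8. The lowest control again stood above the highest secretome muscle, with a log2 fold change of -0.54 (SE 0.12) in this set. For comparison, 1.09% of genes had all 5 secretome muscles below all 5 controls in this range of libraries. Between libraries 1 to 5 and 16 to 20 the controls were at 17.8, 21.9, 23.2, 18.1 and 16.8 CPM and the secretome muscles at 13.5, 12.5, 14.4, 14.5 and 14.3, a log2 fold change of -0.50 (SE 0.12).

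The difference between these 2 differences was -0.06 on the log2 scale with a 95% interval of -0.38 to 0.26. It is built from the contrasts that chose the genes and is given as a description, for Plxnb2 and for the other 9 genes. Nothing is read from the calls on it that are printed below. The interval allows a treatment difference in libraries 6 to 15 that is larger or smaller than the other by a good part of its own size. The library sets themselves, libraries 6 to 15 against the others, differed by -0.09 in Plxnb2 (SE 0.08, adjusted p = 0.625 by the edgeR quasi-likelihood test with Benjamini-Hochberg adjustment over 14471 genes), which did not pass, with a 95% interval of -0.25 to 0.07.

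Removing from each library the trend of its counts with GC content and transcript length left the Plxnb2 difference at -0.42 (SE 0.07). This setting was added after the data had been seen. On that scale the control muscles ranged from 4.05 to 4.38 log2 CPM and the secretome muscles from 3.58 to 3.97, again without overlap. Plxnb2 transcripts have 57.3% G and C, against a median of 49.3% over the 13171 genes with a symbol and a mean level of at least 1 CPM.

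Counted over the 10 genes, 1 was past the 5% FDR (Plxnb2), where 0.00691% of all genes were. With DESeq2 the count was likewise 1, again Plxnb2, against 1.25% of genes. Plxnb2 was not past it in edgeR with a replicate block, without the filter on low counts, with a term for 3 ranges of library numbers, or in 7 of the 20 fits that left out 1 muscle. At an unadjusted p under 0.05, 2 of the 10 were lower (Plxnb2 and Plxnb1) against 9.21% of all genes, and 0 were higher against 6.52%. In libraries 6 to 15 no gene was past the 5% FDR with edgeR (0.0% of 14469), where 1439 genes had an unadjusted p under 0.05, and DESeq2 called Plxnb2 alone of the 10 against 0.239% of genes. At an unadjusted p under 0.05 that range held 1 lower gene of the 10, Plxnb2, against 4.92% of genes. The choice of the genes used these contrasts, so nothing is read from the counts. Of the 10 log2 fold changes, 7 were below 0 and the median was -0.23, beside -0.04 over all genes tested.

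**Figure D2:**
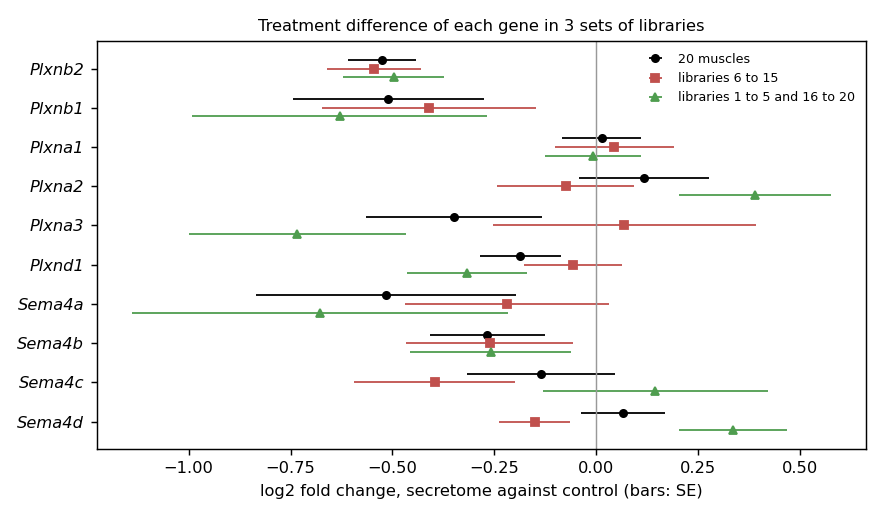
Log2 fold change of secretome against control (horizontal axis, bars are SE) for each of the 10 genes in all 20 muscles (black circles), in libraries 6 to 15 (red squares) and between libraries 1 to 5 and 16 to 20 (green triangles). Plxnb2 lies between -0.54 and -0.50 in all 3 sets, whereas Plxna1, Plxna2, Plxna3, Sema4c and Sema4d lie on different sides of 0 in the 2 smaller sets.

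Plxnb1, the high-affinity receptor of SEMA4D, was scarce. It ranged from 0.908 to 2.98 CPM in control (median 1.86) and from 0.378 to 1.85 in secretome (median 1.35), on 8 to 47 reads per muscle. The groups overlapped over most of their range. The log2 fold change was -0.51 (SE 0.23), nearly the same point value as that of Plxnb2 with a wider error, and it became -0.40 without secretome muscle 8, the lowest of all 20.

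Class A plexins pair with neuropilins to receive secreted class 3 semaphorins. Plxna1 was at 35.4 to 65.1 CPM in control (median 43.3) and 38.1 to 58.3 in secretome (median 46.4), with a log2 fold change of 0.01 (SE 0.10). Its groups lay on top of each other. Plxna2 was at 19.8 to 68.9 CPM in control (median 36.3) and 28.4 to 49.8 in secretome (median 43.1), and the secretome values fell inside the control range. Its log2 fold change of 0.12 (SE 0.16) stood beside -0.08 (SE 0.17) in libraries 6 to 15 and 0.39 (SE 0.19) between the other libraries. Plxna3, which works with neuropilin-2, was as scarce as Plxnb1, at 0.595 to 2.15 CPM in control (median 1.52) and 0.709 to 1.66 in secretome (median 1.12).

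Plxna3 was on different sides of 0 in the 2 library sets. Its log2 fold change was 0.07 (SE 0.32) in libraries 6 to 15 and -0.73 (SE 0.27) between the other libraries, a difference of 0.79 with a 95% interval of -0.01 to 1.59. Plxnd1, the receptor of SEMA3E that endothelial cells use in vessel patterning, ranged from 42.7 to 70.0 CPM in control (median 56.3) and from 36.1 to 63.7 in secretome (median 50.3). The groups overlapped, and the log2 fold change of -0.19 (SE 0.10) shrank to -0.05 (SE 0.09) once GC and length trends were removed. By library set it was -0.06 (SE 0.12) in libraries 6 to 15 and -0.32 (SE 0.15) between the other libraries, where treatment and library set cannot be told apart. The transcript of Plxnd1 is the most GC-rich of the 10, at 60.8%.

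Among the ligands, Sema4d was the most abundant and Sema4a the most variable. SEMA4D, also known as CD100, binds Plexin-B1 and, on lymphocytes, CD72. Its gene was at 72.2 to 124 CPM in control (median 95.7) and 87.1 to 128 in secretome (median 101), a log2 fold change of 0.07 (SE 0.10). The secretome muscles lay inside the control range apart from number 9. Sema4c, whose product is a ligand of Plexin-B2, ranged from 5.27 to 14.5 CPM in control (median 9.71) and from 5.92 to 12.4 in secretome (median 8.15). Its log2 fold change of -0.13 (SE 0.18) was close to 0 without the GC and length trends. It was -0.40 (SE 0.20) in libraries 6 to 15, or -0.25 (SE 0.21) there without the trends. Between the other libraries it was 0.15 (SE 0.28).

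SEMA4A is best known from immune cells and binds Plexin-D1 and class B plexins. Sema4a ranged from 2.32 to 14.7 CPM in control (median 4.42) and from 1.24 to 8.37 in secretome (median 3.48). The top value belonged to control muscle 3, and the log2 fold change of -0.52 (SE 0.32) came to -0.19 without it. Sema4b ranged from 4.23 to 8.38 CPM in control (median 5.09) and from 3.75 to 5.87 in secretome (median 4.71), with a log2 fold change of -0.27 (SE 0.14). Control muscle 3 was the highest for Sema4b as well, and for Plxnb2.

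Per kilobase of exon, the ligand Sema4d stood first and the 2 scarce plexins last. In the control muscles the levels, as CPM per kb of annotated exon, were 12.7 ± 2.46 for Sema4d, 7.75 ± 1.15 for Plxnd1, 5.04 ± 0.894 for Plxna1 and 2.48 ± 0.31 for Plxnb2 (SD, n = 10). The first 3 each exceeded the next in all 10 control muscles. Plxna2 at 2.26 ± 0.80 could not be ordered against Plxnb2, which exceeded it in 7 of 10 muscles. Nor could it be ordered against Sema4c at 2.07 ± 0.71, which it exceeded in 7 of 10. Plxnb2 and Sema4c were not compared with each other. Sema4b at 1.01 ± 0.26 and Sema4a at 0.97 ± 0.66 likewise changed places between muscles, as did Plxnb1 at 0.19 ± 0.06 and Plxna3 at 0.19 ± 0.06. In the secretome muscles Plxnb2 was at 1.72 ± 0.17, and Plxna2 at 2.45 ± 0.39 and Sema4c at 1.88 ± 0.46 had higher means.

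**Figure D3:**
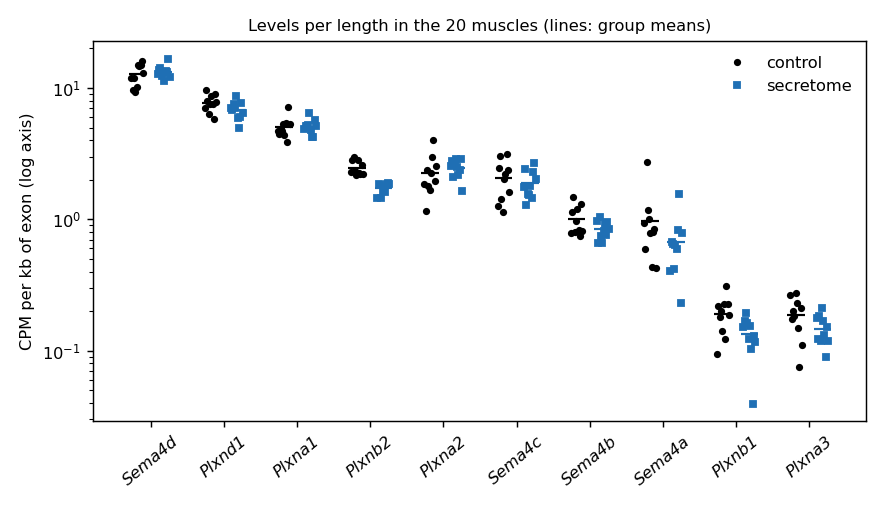
Level of each of the 10 genes as CPM per kb of exon (vertical log axis) in the control muscles (black circles) and secretome muscles (blue squares), ordered by the control mean, with lines at the group means. The levels span from 12.7 for Sema4d to 0.19 for Plxna3 in control, and Plxnb2 is the gene whose groups separate.

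The library sets offer a comparison that the choice of genes did not use. The sets themselves were defined from library numbers with earlier results of these data known. The p-values between them are therefore not those of a split fixed beforehand. Libraries 6 to 15 against the mean of libraries 1 to 5 and 16 to 20, with treatment balanced, asked which genes differed between these sets. The contrast does not follow the titin share evenly, since libraries 1 to 5 were at 7.02% to 11.03% and libraries 16 to 20 at 14.2% to 14.7%. None of the 10 genes passed the 5% FDR in edgeR, where 4.65% of all genes did, and 3 of 10 had an unadjusted p under 0.05, against 18.2% of genes. These 3 were Sema4d, Plxna2 and Sema4a. DESeq2 called 1 of the 10, Sema4d, against 6.36% of genes.

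Sema4d differed between the library sets in the control muscles. Its control values were 90.7, 74.2, 91.2, 72.2 and 78.5 CPM in libraries 1 to 5 and 116, 114, 115, 124 and 100.2 in libraries 6 to 10. These 2 sets of control muscles did not overlap, as was so for 4.74% of the genes tested. The secretome muscles were at 98.8, 105, 109.5, 94.0 and 99.97 CPM in libraries 11 to 15 and at 87.1, 103, 101, 128 and 93.2 in libraries 16 to 20, and these overlapped. The difference between library sets was 0.23 (SE 0.08, adjusted p = 0.0840 by edgeR, 0.0280 by DESeq2).

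The treatment difference of Sema4d was on different sides of 0, at -0.15 (SE 0.09) in libraries 6 to 15 and 0.34 (SE 0.13) between the other libraries. The difference of the 2 was -0.50 with a 95% interval of -0.79 to -0.20. In this contrast 0 of the 10 genes passed the 5% FDR in edgeR against 0.0553% of all genes, 1 of the 10 (Sema4d) had an unadjusted p under 0.05 against 11.1%, and 1 of the 10 passed in DESeq2 against 1.49%, from which nothing is read. The fold change of 0.07 over all 20 muscles covers both library sets.

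Plxna2 and Sema4a had differences of opposite sign between the library sets without passing the test. Plxna2 was 0.40 higher on the log2 scale (SE 0.13, adjusted p = 0.0980 by edgeR), with means of 30.5 ± 7.57 CPM in control 1 to 5, 47.3 ± 13.7 in control 6 to 10, 44.5 ± 5.12 in secretome 1 to 5 and 39.8 ± 7.85 in secretome 6 to 10 (SD, n = 5 each). The difference for Sema4a was -0.75 on the log2 scale (SE 0.28, adjusted p = 0.149 by edgeR), with control means of 6.97 ± 4.49 and 3.55 ± 1.12 CPM in libraries 1 to 5 and 6 to 10. Of the 10 macrophage markers, 5 were lower in libraries 6 to 15 at the 5% FDR in edgeR and 0 higher, beside 4.65% of all genes in either direction, and their summed level was 71.6 to 176 CPM in control 1 to 5, 54.0 to 131 in control 6 to 10, 44.3 to 55.1 in secretome 1 to 5 and 50.7 to 127 in secretome 6 to 10. None of the 10 macrophage markers was at 0 in all muscles. Their part in the Sema4a values was not tested.

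**Figure D4:**
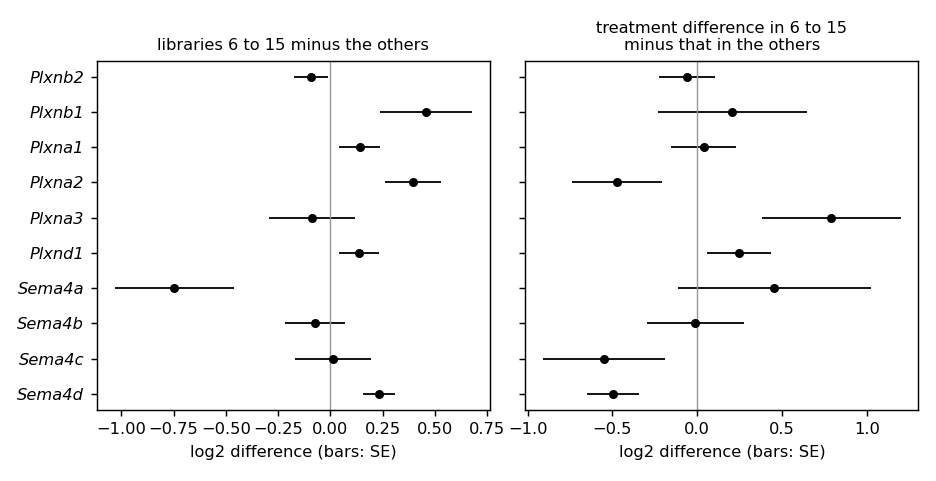
Log2 difference (horizontal axes, bars are SE) for each of the 10 genes between libraries 6 to 15 and the others (left) and between the treatment difference in libraries 6 to 15 and that in the others (right). Plxnb2 is near 0 in both panels, at -0.09 and -0.06, while Sema4d is at 0.23 on the left and -0.50 on the right.

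Within the 4 sets of 5 muscles, given by treatment and library range, the level of Plxnb2 can be set against that of the other 9 genes without using the treatment difference. The log2 CPM of each gene was taken as the deviation from its mean in the set, and 9 relations were tested over the 20 muscles by permuting muscles within sets (100000 permutations, two-sided, Benjamini-Hochberg adjustment over the 9). Plxnd1, Sema4b and Sema4c gave the highest coefficients, each with Pearson r = 0.56, and none of the 9 passed the adjustment. For Plxnd1 the permutation p was 0.0154 (adjusted p = 0.109) with Spearman rho = 0.57 (permutation p = 0.0182, adjusted p = 0.147). Sema4c had a permutation p of 0.0358 (adjusted p = 0.109) with rho = 0.55, and Sema4b a permutation p of 0.0365 (adjusted p = 0.109) with rho = 0.44. The 6 others ranged from r = -0.23 for Plxna2 to r = 0.36 for Sema4d.

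Without control muscles 3 and 6, the 2 farthest from the median of Plxnb2, r was 0.56 for Plxnd1, 0.53 for Sema4c and 0.37 for Sema4b. For Sema4c, r was 0.98 in libraries 1 to 5 and 16 to 20 and 0.02 in libraries 6 to 15. With GC and length trends removed, these values were 0.23 and 0.06. The split was not tested. Across genes, the coefficient with Plxnb2 rose with the GC content of the transcript, with a rank correlation of 0.62 over 13171 genes, which are not independent replicates. The 100 genes most like Plxnb2 had a median GC content of 56.0% and the 100 least like it 42.4%. Apart from Plxna2 at 49.7% and Sema4d at 53.4%, the 10 genes here had 55.0% to 60.8%.

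Taking the trends with GC and length out of each library, a setting added after the data had been seen, moved these values. The coefficients of Sema4b and Sema4c fell to 0.05 and 0.13 and that of Plxnd1 to 0.32, whereas Sema4a rose from 0.33 to 0.70. The Sema4a relation had a permutation p of 0.00046 and passed the adjustment (adjusted p = 0.00414), with rho = 0.67 (permutation adjusted p = 0.0264). It was 0.77 without the 2 muscles farthest from the median of Plxnb2, 0.56 in libraries 6 to 15 and 0.89 in the others. On the scale fixed at first it was 0.33 with an adjusted permutation p of 0.286.

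**Figure D5:**
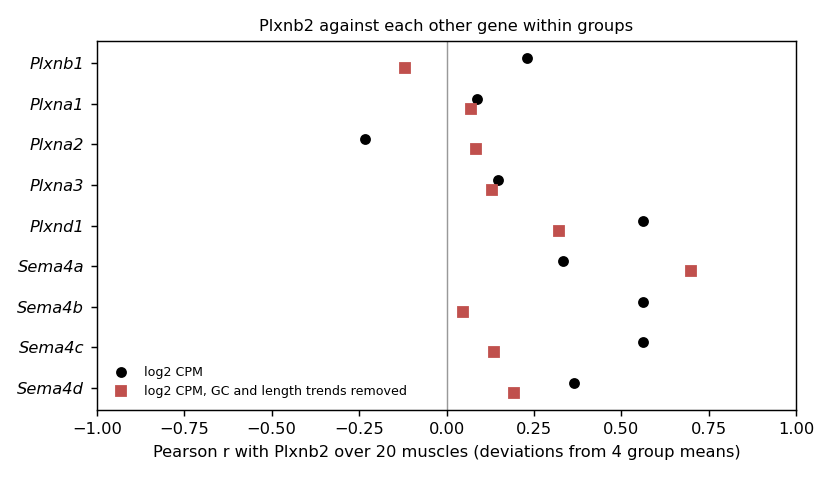
Pearson r between Plxnb2 and each of the other 9 genes (horizontal axis) over the 20 muscles, from deviations within the 4 sets, on log2 CPM (black circles) and with GC and length trends removed (red squares). Sema4b and Sema4c go from 0.56 to 0.05 and 0.13, and Sema4a goes from 0.33 to 0.70.

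The 5 genes most like Plxnb2 over the 20 muscles by Pearson r were Grk6 (0.86), a kinase of activated G protein-coupled receptors, Cdkn2d (0.85), an inhibitor of cyclin-dependent kinases, H2-DMa (0.84), which loads peptides on MHC class II, Uba7 (0.82), the activating enzyme of ISG15, and Lamtor2 (0.82), a subunit of the lysosomal Ragulator complex. Their transcripts had 54.8% to 57.1% G and C. The 3 least like it were Atg10 (-0.82), an autophagy enzyme, Nupl2 (-0.81), a nuclear pore protein, and Gm21811 (-0.81). With trends removed the 5 most like were Pea15a (0.77), an ERK-binding phosphoprotein, Trim34a (0.77), Slc9a9 (0.75), an endosomal sodium-proton exchanger, Tmem106a (0.75) and Pla2g2d (0.75), a secreted phospholipase. Among the least like were then 4632428C04Rik (-0.75) and Trim72 (-0.70), a membrane repair protein of muscle. No gene was on both lists.

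Macrophage markers also moved between these scales. On log2 CPM their 10 coefficients with Plxnb2 had a median of 0.07 and ran from -0.68 to 0.42, and with the trends removed all 10 were above 0, with a median of 0.45 and a range of 0.04 to 0.61. Fibroadipogenic progenitor markers had a median of 0.05 on the first scale and 0.35 on the second. The 4 neutrophil markers had 0.10 and 0.31, with a range of 0.27 to 0.39 on the second, and endothelial markers -0.09 and -0.10. Medians of the other marker lists ran from -0.19 to 0.03 on the second scale. The SD of the coefficient over 13171 genes was 0.40 and 0.26. The share of all genes above 0 is not given, so nothing is read from the count of 10. These medians are descriptions over marker lists whose genes share the same 20 libraries.

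Between treatments, 0 of the macrophage, endothelial and fibroadipogenic progenitor markers passed the 5% FDR in edgeR, beside 0.00691% of all genes. DESeq2 called 1, the macrophage receptor gene Csf1r (adjusted p = 0.0455), beside 1.25% of all genes. The 10 macrophage markers had log2 fold changes below 0 with a median of -0.56, and 5 of 10 were lower at an unadjusted p under 0.05 in edgeR, beside 9.21% of all genes, while 0 of the endothelial and fibroadipogenic progenitor markers were. The summed level of the macrophage markers was 54.0 to 176 CPM in control (median 95.7) and 44.3 to 127 in secretome (median 52.9). These ranges overlapped. Endothelial markers had 9 of 9 values below 0 with a median of -0.14, and their sum was 143 to 260 CPM in control and 137 to 218 in secretome. The 7 fibroadipogenic progenitor markers were all below 0 (median -0.32) with sums of 201 to 807 and 262 to 535 CPM. Adipocyte markers had 5 of 5 values below 0 (median -0.56). Of the 4 neutrophil markers tested, 1 was below 0 (median 1.12), as was 1 of the 8 myofibre markers (median 0.11). The median over all genes tested was -0.04. The share of all genes below 0 is not given, so nothing is read from the counts of signs. Summed neutrophil markers spanned 1.36 to 97.3 CPM in control and 1.46 to 109.7 in secretome. Summed levels of satellite cell, Schwann cell and mural cell markers overlapped between the groups, with 4 of 5, 5 of 5 and 4 of 6 tested values below 0. The part of these cells in the Plxnb2 difference was not tested.

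The other plexins and semaphorins were examined as lists chosen with earlier results of these data known. Plxnc1, the receptor of SEMA7A on leukocytes, was at 0.992 to 5.23 CPM in control (median 2.30) and 0.811 to 2.03 in secretome (median 1.17). Its log2 fold change of -0.85 (SE 0.26) was the lowest of the 3 other plexins, which were all below 0, but it did not pass the 5% FDR (adjusted p = 0.158 by edgeR). Plxna4 had -0.18 (SE 0.18). Sema4f and Sema4g, the 2 remaining class 4 semaphorins, were too scarce to be tested, with a summed level of 0.107 to 1.05 CPM over the 20 muscles. Of 14 semaphorins of other classes 13 were tested, 0 passed the 5% FDR in edgeR or DESeq2 and 1 was lower at an unadjusted p under 0.05 in edgeR, beside 9.21% of all genes. The smallest unadjusted p in this list was that of Sema5a at -0.40 (SE 0.19), followed by Sema3g at -0.23 (SE 0.13).

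Of the 7 coreceptors, 6 were tested in edgeR and 0 of these passed the 5% FDR. Of the 6, 1 was lower at an unadjusted p under 0.05 and 0 were higher, beside 9.21% and 6.52% of all genes. DESeq2 called 1 of the 7, which was not among the 6, beside 1.25% of all genes. Nrp2, the coreceptor of class A plexins for SEMA3F, was at 15.8 to 27.1 CPM in control (median 19.8) and 14.1 to 21.03 in secretome (median 17.04), with -0.22 (SE 0.10, adjusted p = 0.271 by edgeR). Mst1r, the kinase RON that can associate with Plexin-B1, had -0.43 (SE 0.21). Cd72 failed the count filter of edgeR, but DESeq2 called it lower, at -2.82 (SE 0.61, adjusted p = 0.00628). It had reads in all 10 control muscles, from 0.198 to 1.86 CPM with a median of 0.486, and none in 5 of the 10 secretome muscles, whose highest level was 0.312 CPM. The most reads in 1 muscle were 40 in control and 5 in secretome. The listed B and T cell markers were all under the edgeR filter. DESeq2 called 5 of the 6 lower, Cd3e, Cd79a, Ms4a1 and Trac among them, beside 1.25% of all genes in either direction. The summed level of the list was 0.529 to 7.66 CPM in control and 0.0 to 0.913 in secretome. The part of lymphocytes in the Cd72 difference was not tested.

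Of 30 cytoplasmic partners of plexins, all tested, 0 passed the 5% FDR in either tool, 6 were lower and 4 higher at an unadjusted p under 0.05, and the median was -0.10, beside 9.21% of all genes lower, 6.52% higher and a median of -0.04. The smallest p belonged to Mical1, whose product oxidises actin filaments below class A plexins, at 3.99 to 8.77 CPM in control (median 5.32) and 2.69 to 4.92 in secretome (median 4.17), with -0.58 (SE 0.17, adjusted p = 0.153 by edgeR). Next came Dpysl2, the collapsin response mediator CRMP2, with -0.36 (SE 0.13, adjusted p = 0.198 by edgeR). Arhgef12, an exchange factor that class B plexins bind, had 0.16 (SE 0.08), and Rock2, a kinase of the actin cytoskeleton, had 0.28 (SE 0.11). Of the 6 genes around angiogenin, Ang4, Ang5 and Ang6 had no read in any muscle and 2 were tested. Ang, which encodes angiogenin itself, was at 0.816 to 4.03 CPM in control (median 2.61) and 0.913 to 2.15 in secretome (median 1.73), with -0.56 (SE 0.24, adjusted p = 0.263 by edgeR), and Rnh1, its inhibitor, had -0.22 (SE 0.16). In edgeR none of these lists held a treatment call.

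Between the library sets, 4 of the 54 tested genes of these lists passed the 5% FDR in edgeR, 1 higher and 3 lower in libraries 6 to 15, beside 4.65% of all genes, so that nothing particular to these lists is read from the count. Sema6d, a ligand of class A plexins, was higher, at 0.44 (SE 0.10, adjusted p = 0.0137). Sema5a was lower at -0.54 (SE 0.15, adjusted p = 0.0370), with control means of 10.9 ± 2.49 CPM in libraries 1 to 5 and 6.07 ± 1.01 in libraries 6 to 10 (SD, n = 5 each). Limk1, the kinase that phosphorylates cofilin, was lower at -0.61 (SE 0.13, adjusted p = 0.00668), and Dpysl3 at -0.45 (SE 0.13, adjusted p = 0.0407). Of the 7 fibroadipogenic progenitor markers, 5 were lower in libraries 6 to 15 at the 5% FDR, beside the same 4.65% of all genes, and their sum was 486 to 807 CPM in control 1 to 5 and 201 to 343 in control 6 to 10. Their part in the values of Sema5a, Limk1 and Dpysl3 was not tested.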

How the data were processed

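Per the labels and the submitters' processing notes, total RNA of 20 quadriceps was made into stranded libraries and sequenced on a NovaSeq as 150 base pairs per read end, and the notes name cutadapt 1.16, STAR 2.7.9a, featureCounts 1.6.3 and DESeq2 1.34.0 with build GRCm39 (mm39). The annotation is not given in the sources used here. The authors deposited raw counts of reads per gene for all samples in 1 table, and 0 pairs of libraries held identical values. Symbols came from a table of Ensembl IDs and matched 52083 of 55416 IDs, which held at least 98.6% of the reads of each library.

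Counts were normalized by TMM and filtered by filterByExpr in edgeR 4.0.16 (R 4.3.3), and tested with the robust quasi-likelihood F-test and Benjamini-Hochberg adjustment over all genes tested. Models held either the treatment or 4 means (treatment by library set). CPM used TMM library sizes, log2 CPM a prior count of 2, and levels per kb the exon lengths of GENCODE M21 (GRCm38). In edgeR fits the SE was the size of the log2 fold change divided by the square root of F. The 95% intervals are 1.96 SE wide on each side. They are approximate and somewhat narrow, since they can leave out 0 where the unadjusted p of the F-test is above 0.05. DESeq2 1.42.0, limma 3.58.1 with quality weights, RLE, no filter, titin left out, a replicate block, a term for 3 library ranges and leaving out each muscle were alternatives. After the data had been seen, a setting was added that removes trends with GC content and length. Correlations across muscles were tested in Python with permutations. The model fits were tested on simulated data.

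The members, the library ranges and all gene lists were chosen with earlier results of these data known. The text names all 10 genes, for each list the 2 genes with the smallest p in the 20-muscle fit and any past the 5% FDR, and the 5 genes most and 3 least like Plxnb2 by Pearson r (mean level of at least 1 CPM), apart from some genes that are not reported here. Pathway genes past an unadjusted 0.05 beyond these, and Lgals3bp, were named after their values were seen.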

Additional observations from a re-analysis of the deposited data

Results flagged for a closer look

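Of 20 groups examined (10 genes in control and in secretome), 1 held a muscle far from the others. In Plxnb1, secretome muscle 8 was at -1.03 on the log2 CPM scale and the next lowest secretome muscle at 0.14, a gap of 0.584 of the range of the group, above Dixon's 95% critical value for 10 samples. Chance flags about 1 in 20 groups. The value rested on 8 reads. The log2 fold change of Plxnb1 was -0.51 with this muscle and -0.40 without it.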

How the results depend on the processing

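With alternatives, the number of genes past the 5% FDR over 20 muscles was 216 with DESeq2, 3 with limma quality weights, 2 with GC and length trends removed, and 0 with the replicate block or with the term for 3 library ranges, against 1, and 0 to 15 when single muscles were left out. In libraries 6 to 15 it was 37 with DESeq2, 11 without the filter and 0 to 2 without single muscles, against 0. Between library sets it was 1023 with DESeq2, 448 without the filter, 1535 with limma quality weights and 452 to 899 without single muscles, against 673. For the difference of the 2 treatment differences it was 186 with DESeq2, 2 without the filter, 149 with limma quality weights, 4 with trends removed and 1 to 9 without single muscles, against 8. The causes were not tested. The log2 fold change of Plxnb2 stayed below 0 in all 28 other fits, from -0.56 with the term for library ranges to -0.42 with trends removed, and from -0.54 to -0.49 without single muscles. It was not past the 5% FDR without the filter, with the block or with the term for library ranges, and was past it in 13 of 20 fits that left out 1 muscle. The 7 in which it was not left out control 6 or 9 or secretome 1, 4, 5, 6 or 7.

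The labels number control and secretome muscles alike from 1 to 10, but nothing in them ties same-numbered muscles to each other. Their deviations from the group means correlated from -0.24 to 0.22, with 2 of 10 pairs over 0.1, so the numbers were not taken as pairs, and with the replicate block the log2 fold change of Plxnb2 was -0.52 and 489 genes differed between library sets.

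With the term for 3 library ranges, which leaves libraries 6 to 15 to set the treatment difference, the log2 fold change was 0.06 for Plxna3 against -0.35, -0.16 for Sema4d against 0.07, -0.09 for Plxna2 against 0.12 and -0.41 for Sema4c against -0.13. That of Plxna1 ran from -0.03 to 0.08 without single muscles. Other values changed sign as follows. The difference of the 2 treatment differences reached 0.014 for Plxnb2 and 0.055 for Sema4b with trends removed. Without single muscles it ran from -0.13 to 0.0014 for Plxnb2, -0.013 to 0.37 for Plxnb1, -0.0499 to 0.18 for Plxna1, -0.016 to 0.85 for Sema4a and -0.18 to 0.115 for Sema4b. The difference between library sets then ran from -0.14 to 0.0085 for Sema4b and from -0.068 to 0.14 for Sema4c. The number of correlations past the adjustment was 1 with trends removed (Sema4a, r = 0.70), against 0. The coefficient of Plxna1 was -0.027 from the 2 treatment means, and with trends removed those of Plxnb1 and Plxna2 were -0.12 and 0.085. Sema4d passed between library sets with DESeq2, with limma quality weights (adjusted p = 0.0105) and without secretome 9 (adjusted p = 0.0217), and Plxna2 and Sema4a with limma quality weights (adjusted p = 0.00889 and 0.0410). Plxnb1 and Plxna3, at 8 to 47 and 9 to 39 reads per muscle, are limited by depth.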
